A study of Homo sapiens and Mus musculus with 9 samples.

Results

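The genes described here belong to the ubiquitin and proteasome system, as seen in HEK293 cells. They were chosen by name alone from the genes that carry at least 1 small RNA peak on their mRNA: names starting with PSM, UBE, USP, CUL, FBX, RNF or TRIM, together with CDC34 and RCHY1. This gave 131 genes, each with 1 transcript, out of 5745 genes with a peak. RefSeq lists 409 protein-coding genes with such names, so the set covers 31.8% of them, and a family member without a peak is not in it. By role, 19 encode proteasome subunits or proteasome-binding proteins, 11 E2 conjugating enzymes, 4 ligases of the UBE3 and UBE4 families, 3 cullins, 21 F-box proteins, 32 RING ligases, 15 TRIM proteins and 25 deubiquitinases. PSMC3IP shares the name but is a recombination factor, so it was kept apart from the proteasome.

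Ubiquitin is activated by an E1 enzyme, passed to an E2 conjugating enzyme and attached to a protein with the help of an E3 ligase, which picks the substrate. RING, TRIM and UBE3 or UBE4 proteins act as ligases, and in some cullin ligases an F-box protein binds the substrate. The 26S proteasome then unfolds and cuts the tagged protein: PSMA and PSMB proteins form its core particle, PSMC ATPases and PSMD proteins its regulatory particle. Deubiquitinases of the USP family remove the tag. In starved cells the proteasome is one source of free amino acids.

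Footprints of ribosomes were read from 4 Ribo-seq libraries of wild-type HEK293 cells, a line from human embryonic kidney. These are 2 libraries of starved cells transfected with a trans-RNA directed against ATF4 (trans1 and trans2, which carry the same treatment label), 1 of starved cells without it (starvation) and 1 of control cells (control). The labels do not say whether trans1 and trans2 are repeats or different RNAs, so each was kept as its own group. A difference between them cannot be told apart from spread within 1 treatment. Small RNAs of wild-type HEK293 cells were read from 1 capped and 1 total library, in which RNAs were made ready for ligation by decapping or by adding a 5′ phosphate. The labels name no cells transfected with an unrelated RNA, and no mRNA levels of these cells were used, so a change in mRNA level cannot be told apart from a change in ribosomes per mRNA. With 1 library per group no test against biological variation was possible: ratios are described by a rule of size, at least 2-fold, and bracketed intervals are exact 95% intervals that cover counting error only.

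Footprint reads could be recovered for 86 of the 131 members and for 10281 of 16984 transcripts in all. The other members were either not listed in the density tables (27 of 131) or had too few positions with reads. Recovered depth was 6149431 reads for trans1, 7553397 for trans2, 9408867 for starvation and 10681854 for control. All 86 members had reads in all 4 libraries. Members held 0.946% of the reads in trans1, 1.21% in trans2, 0.865% in starvation and 0.826% in control. Without USP7 these shares were 0.62%, 0.688%, 0.654% and 0.767%. The rise in the member share thus lay in 1 gene, and the other members together had a lower share in the starved libraries than in control.

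Starvation against control asks how starvation, of a kind the labels do not specify, alters ribosome occupancy. The clearest pattern was in the proteasome: 13 of its 14 measured genes had a lower CPM (reads scaled to a common library total of recovered reads) in starved cells, with a median log2 ratio of -0.46. Over all 86 members the median was -0.16, and over all 10276 transcripts it was -0.0018. Windows around the start and stop codons were also read alone. There 12 of 14 proteasome genes lay below 0 at the start, 11 at the stop and 11 in both together. Their medians were -0.51, -0.47 and -0.51, against -0.085, -0.086 and -0.043 over all transcripts. The counting interval lay wholly below 0 for 11 of the 14 proteasome genes, against 40 of 86 members and 30.9% of all transcripts. Such an interval leaves out 0 more easily in genes with more reads. These shares, here and in the comparisons below, were not matched for read depth. A log2 ratio below 0 was found in 50.2% of all transcripts. No set of genes was tested, since no replicate spread exists.

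The largest proteasome difference was in PSMD1, the large scaffold subunit of the regulatory particle. It had 22.3 CPM in starvation, against 61.3 CPM in control, a log2 ratio of -1.42 (-1.69 to -1.23). It was the only proteasome gene past 2-fold, and it stayed past 2-fold in either window taken alone. In trans1 and trans2 it had 22.9 and 20.1 CPM, so all 3 starved libraries lay well below control and close to each other. All 3 contrasts rest on the same 1 control library.

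The ATPases of the regulatory particle followed. PSMC4 had 79.9 CPM in starvation and 143 CPM in control, a log2 ratio of -0.84 (-0.97 to -0.72). PSMC2 had 139 CPM in starvation and 240.03 CPM in control, a log2 ratio of -0.79 (-0.89 to -0.70). In the transfected cells PSMC4 had 58.2 CPM in trans1 and 82.3 CPM in trans2, and PSMC2 had 115 CPM in trans1 and 119 CPM in trans2. For both ATPases, control was the highest of the 4 libraries. Among the non-ATPase subunits PSMD3 had a log2 ratio of -0.40 (-0.48 to -0.33), while the interval of PSMD2 reached 0 (-0.15 to 0.01).

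PSMD7, which pairs with the deubiquitinating subunit of the regulatory particle, was the exception. It had 431 CPM in starvation and 383 CPM in control, a log2 ratio of 0.17 (0.11 to 0.23). By all recovered reads it alone among the proteasome genes was higher in starvation, while window reads alone put more of them above 0. By all recovered reads the 6 measured core particle genes were all lower in starvation, each with an interval below 0, and their median was -0.50. The α-type subunit PSMA3 had 257 CPM in starvation and 403 CPM in control (-0.65). The β-type subunits PSMB3 (-0.60) and PSMB2 (-0.56) came next, and PSMB7, the trypsin-like active subunit, differed least (-0.16, interval -0.25 to -0.08). The activator PSME4 (-0.18, interval -0.38 to 0.01) and the assembly chaperone PSMG3 (-0.48, interval -0.75 to -0.26) were also below 0.

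Per length, the proteasome mRNAs differed widely in occupancy. In control, CPM per kilobase were highest for PSMA4 (582), PSMB3 (570) and PSMA3 (523). Regulatory particle genes ranged from 391 for PSMD7 to 21.4 for PSMD1. The level was 8.36 for PSME4, the lowest of the 14. Thus core particle genes, at 319 to 582, stood above all measured regulatory particle genes other than PSMD7.

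**Figure D1:**
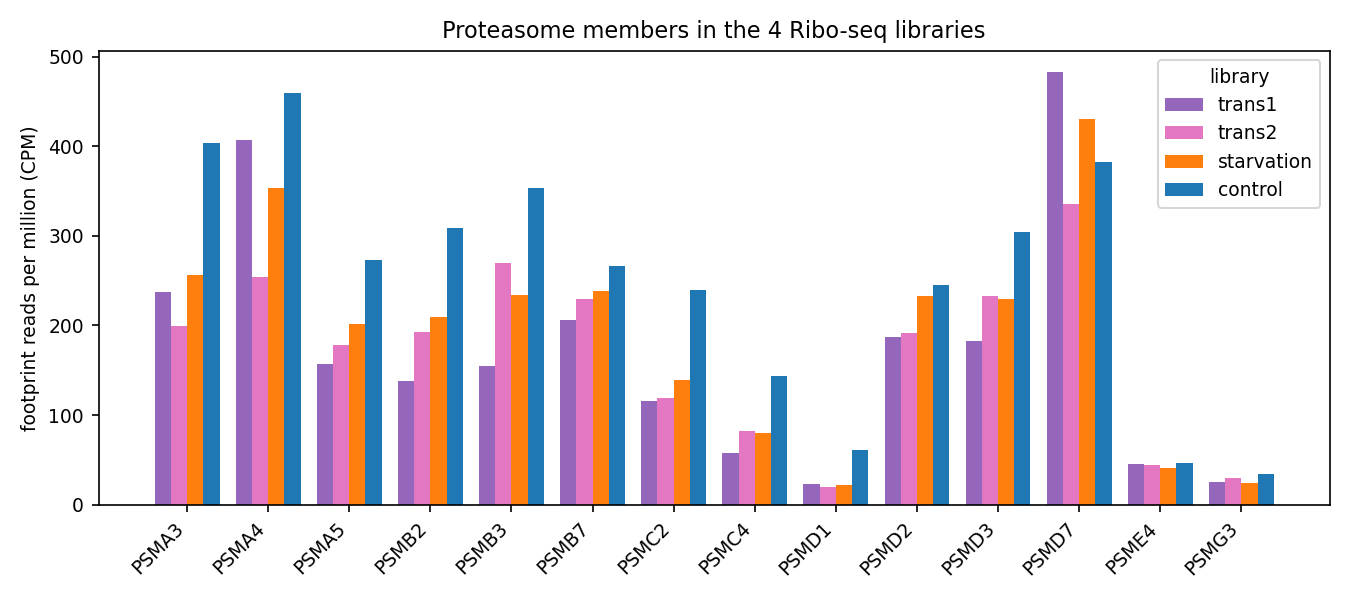
Footprint CPM (vertical axis) of the 14 measured proteasome genes in the trans1, trans2, starvation and control libraries, 1 bar per library with no replicate. Control is the tallest bar for 13 of the 14 genes, and PSMD7 is the exception, at 383 CPM in control and 431 CPM in starvation.

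The authors' deposited table of open reading frames, made from the same libraries, also held low values for the proteasome. In it, all 9 proteasome coding frames had a log2 fold change below 0 for starvation against control, from -0.67 to -0.15, with a median of -0.56. All 2118 coding frames in the authors' deposited table had a median of -0.14. It also lists 10 upstream frames on 5 proteasome mRNAs, all below 0, with a median of -0.93 against -0.14 for all 6143 upstream frames. In the authors' deposited table these include PSMB2 (-1.06), PSMB3 (-1.33) and 2 frames of PSMA4 (-1.65 and -1.33). Several of these frames overlap on 1 mRNA and share reads, so they are not separate observations.

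The 250 bases before the annotated start of these genes were searched for letters known from proteasome promoters, whose human regulator NFE2L1 binds antioxidant response elements. TGACNNNGC, read on both strands, lay in 4 of the 15 proteasome genes with a RefSeq window (26.7%) and in 13.2% of all 27305 genes with a window. CCAAT, read on both strands, lay in 10 of those 15 (66.7%) and in 37% of all genes. Over the 100 members with a window, proteasome genes included, the shares were 17% and 42%, in that order. The antioxidant element is given for its 4 carriers (RefSeq, GRCh38.p14, 5′ to 3′ on the gene's strand, motif in capitals). In PSME4 the capitals are the motif read on the opposite strand.
PSMA4, chr15:78540650-78540678, + strand: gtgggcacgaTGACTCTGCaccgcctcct
PSMB3, chr17:38752627-38752655, + strand: gcctccgtttTGACTTTGCaaccaaacta
PSMD3, chr17:39980760-39980788, + strand: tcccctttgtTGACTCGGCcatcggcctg
PSME4, chr2:53971009-53971037, - strand: cccggcggctGCAGCGTCAccagcagagc
The motif starts 126 bases before the annotated start in PSMA4, 104 in PSMB3, 37 in PSMD3 and 34 in PSME4. Their log2 ratios for starvation against control were -0.38, -0.60, -0.40 and -0.18, which lie within the range of the other proteasome genes. A match is a string of letters, and whether a factor bound there was not measured.

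Outside the proteasome, few members passed 2-fold in starvation. Of the 86 members, 4 were at least 2-fold higher (4.65%, against 2.71% of all transcripts) and 2 were at least 2-fold lower (2.33%, against 1.94% of all transcripts). Both shares rest on a handful of genes near the background, and the balance depends on the threshold and on the reads used. At 1.5-fold 5 members were higher and 11 lower, a count not made over all transcripts. Past 2-fold in the start window alone 1 was higher (1.16%, against 5.57% of all transcripts) and 7 lower (8.14%, against 8.71%). In the stop window alone 5 were higher (6.17%, against 6.72%) and 12 lower (14.8%, against 9.76%). The higher ones were USP7, TRIM56, TRIM58 and RNF144A. The lower ones were PSMD1 and TRIM24.

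RNF144A, a RING-between-RING ligase, had 26.7 CPM in starvation and 12.6 CPM in control, a log2 ratio of 1.02 (0.77 to 1.39). Its reads in the start and stop windows together gave 1.10, so this difference lay in the windows too. RNF144A passed 2-fold in the stop window alone but not in the start window alone. TRIM56, a ligase of antiviral signalling, had 14.2 CPM in starvation and 5.15 CPM in control (1.31, interval 1.00 to 1.95), with 1.13 from the windows together. This window difference of TRIM56 lay in its stop window (1.78). In the start window no measured TRIM gene stood above 0.17. In trans1 and trans2 RNF144A had 26.3 and 22.2 CPM and TRIM56 had 16.4 and 17.5 CPM, again well above the same 1 control library.

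For TRIM58 and TRIM24 the windows together did not show the same size of difference. TRIM58, a ligase of maturing red cells, had 49.6 CPM in starvation and 23.1 CPM in control (1.07), but 0.16 from the windows alone. Its stop window gave 1.03, from 17 reads in starvation and 7 in control, and its start window -0.25, from 26 reads in starvation and 36 in control. TRIM24, a chromatin-binding ligase, had 10.6 CPM in starvation and 25.4 CPM in control (-1.18), but -0.34 from the windows alone. Its start window held 0 reads in starvation and 26 in control, and its stop window held 28 in starvation and 16 in control.

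The E2 enzymes had a median log2 ratio of -0.16 over 7 genes under starvation, with the interval below 0 for 4 and above 0 for 1. Over all 10276 transcripts the interval lay below 0 for 3173 and above 0 for 3104. UBE2M, which conjugates NEDD8 to cullins, differed most: it had 233 CPM in starvation and 335 CPM in control (-0.52, interval -0.60 to -0.45). UBE2S, an E2 of the anaphase-promoting complex, had 468 CPM in starvation and 436 CPM in control (0.10, interval 0.04 to 0.16). UBE2D2 (-0.02), UBE2G1 (0.04), UBE2O (-0.29), UBE2Z (-0.29) and CDC34 (-0.16) completed the group. Of the 3 UBE3 and UBE4 ligases, UBE4A was lowest (-0.67), followed by UBE3C (-0.26) and UBE3B (-0.01).

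F-box genes lay 7 above and 7 below 0 among 14, from -0.89 for FBXO46 to 0.52 for FBXO22, with the interval wholly above 0 for 1 and wholly below 0 for 5. RING ligases lay 12 above and 12 below 0 among 24, from -0.60 for RCHY1 to 1.02 for RNF144A, with the interval above 0 for 5 and below 0 for 11. RNF20, which ubiquitinates histone H2B together with RNF40, stood at 0.68, while RNF40 stood at -0.23. Deubiquitinases had a median of 0.059 over 15 genes, with the interval above 0 for 5 and below 0 for 3. Beside these role counts, 3104 of all 10276 transcripts had an interval above 0 and 3173 one below 0. USP14, which sits on the proteasome, had 77.2 CPM in starvation and 112 CPM in control (-0.54, interval -0.68 to -0.41), so it was lower along with the particle it binds. TRIM28, the corepressor of KRAB zinc finger proteins, stood at -0.56 and CUL2 at -0.34.

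**Figure D2:**
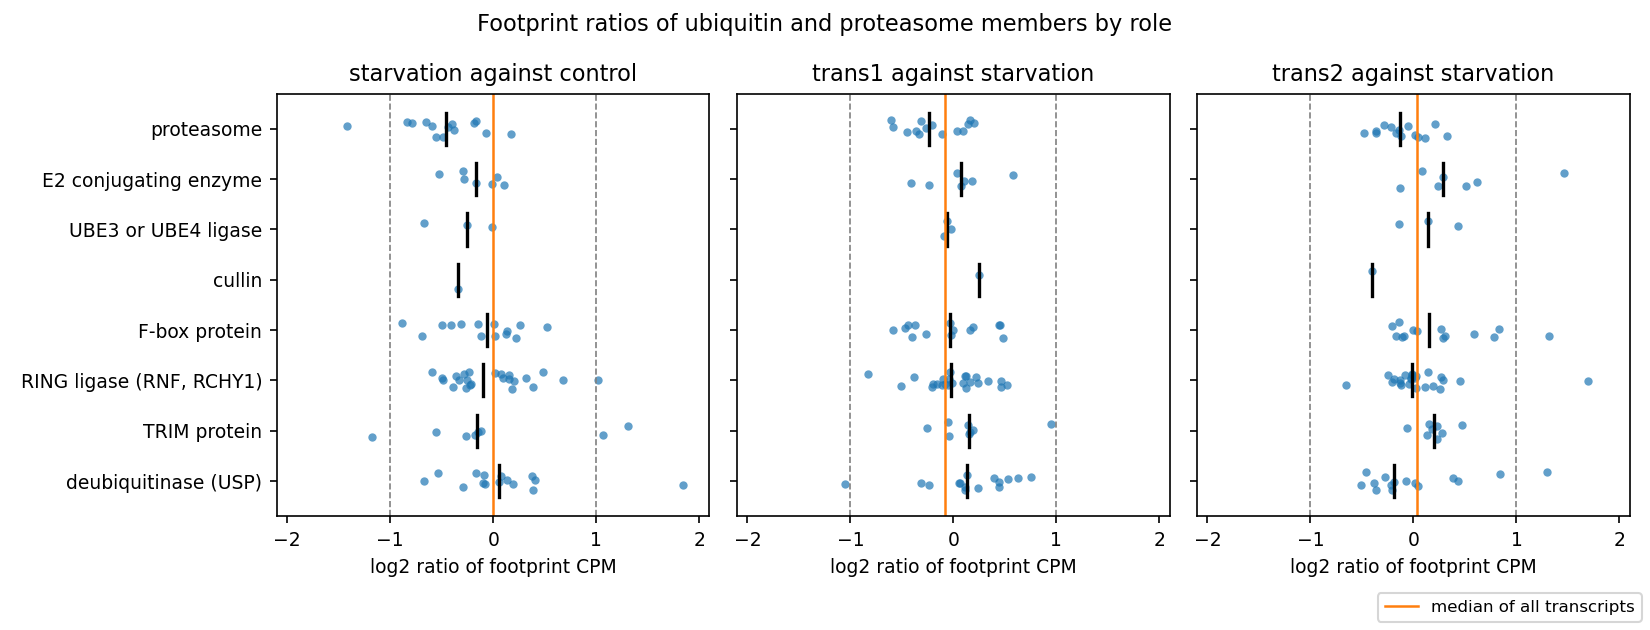
Log2 ratio of footprint CPM (horizontal axis) for each measured member, by role, in the 3 comparisons: points are genes, black bars are role medians, the orange line is the median of all transcripts and dashed lines mark 2-fold. The proteasome sits left of the other roles in starvation against control, with a median of -0.46, and most other members lie within 2-fold in each comparison.

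Of 146 other ubiquitin pathway genes on a list (E1 enzymes, ubiquitin genes, further ligases, deubiquitinases, shuttle factors and the like), 66 carried a peak and 46 could be measured. For starvation against control 25 lay above and 21 below 0, with a median of 0.053. DDB2, a DNA damage receptor of a cullin ligase, had 142 CPM in starvation and 54.5 CPM in control (1.36). AKIRIN2, which brings proteasomes into the nucleus of human cells, had 33.1 CPM in starvation and 67.4 CPM in control (-1.01). These were the only 2 past 2-fold in that comparison, and none passed 2-fold in trans1 or trans2 against starvation.

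The trans1 library against starvation asks what the trans-RNA adds in starved cells. Proteasome mRNAs were lower again in 9 of 14 genes, with a median of -0.24, against 0.037 for all members and -0.078 for all 10268 transcripts. The interval lay below 0 for 9 of the 14 and above 0 for 2. A ratio below 0 was found in 58.5% of all transcripts, and an interval below 0 in 32.4%. Among these 10268 transcripts the interval lay above 0 for 1952. This comparison shares its starvation library with starvation against control, so a high or low value in that library moves both in opposite directions.

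The β-type subunits PSMB2 and PSMB3 led. PSMB2 had 138 CPM in trans1 and 210 CPM in starvation, a log2 ratio of -0.60. PSMB3 had 155 CPM in trans1 and 234 CPM in starvation, a log2 ratio of -0.59. Both were thus lowest in trans1 among the 4 libraries. In contrast PSMA4 (0.20) and PSMD7 (0.16) were higher in trans1. In the authors' deposited table the 9 proteasome coding frames lay between -0.87 and -0.42, with a median of -0.61, and all coding frames had a median of -0.48, so their distance from the rest was small there.

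Of 86 members, 1 was at least 2-fold lower in trans1 (1.16%, against 1.52% of all transcripts) and 0 were at least 2-fold higher (against 1.59%). It was USP20, a deubiquitinase, with 35 reads (5.69 CPM) in trans1 and 121 reads (12.9 CPM) in starvation, a log2 ratio of -1.05. Relative to the median of all transcripts, USP20 no longer passed 2-fold. The authors' deposited table lists its upstream frame at -1.81 in trans1 and -1.07 in trans2 against starvation. Next were RNF185 (-0.83), a ligase of endoplasmic reticulum quality control, and on the higher side TRIM24 (0.95) and USP53 (0.76). The windows of TRIM24 pointed the other way, with 4 reads in trans1 and 28 in starvation, a log2 ratio of -1.46. E2 genes ran from -0.41 for UBE2D2 to 0.57 for UBE2O.

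In trans2 against starvation, the proteasome median was -0.13, against 0.016 for all members and 0.037 for all 10278 transcripts, and 9 of 14 genes were below 0. The interval lay below 0 for 7 of the 14. A ratio below 0 was found in 45.7% of all transcripts, and an interval below 0 in 21.6%. PSMA4 (254 CPM in trans2 and 353 CPM in starvation, -0.48), PSMA3 (-0.36) and PSMD7 (-0.36) were lowest. PSMB3 was higher (0.21), where trans1 had it lower. With reads of the start window alone the proteasome median turned to 0.051, against 0.115 over all transcripts. In the stop window it was -0.166, against 0.108. Thus no direction relative to 0 can be given for trans2, while in each window the proteasome median lay below that of all transcripts.

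Of 86 members, 4 were at least 2-fold higher in trans2 (4.65%, against 1.99% of all transcripts) and 0 at least 2-fold lower (against 0.37%). They were RCHY1, CDC34, FBXO46 and USP7. RCHY1, a RING ligase of p53, had 329 CPM in trans2 and 101 CPM in starvation, a log2 ratio of 1.69. It had 146 CPM in trans1 and 154 CPM in control, so trans2 stood apart from the other libraries. CDC34, the E2 partner of cullin ligases, had 331.6 CPM in trans2 and 120 CPM in starvation, a log2 ratio of 1.46. It had 136 CPM in trans1 and 134 CPM in control, again well below trans2. FBXO46, a substrate receptor, had 15.0 CPM in trans2 and 5.42 CPM in starvation (1.31), but control had 10.9 CPM.

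For RCHY1 the extra reads lay outside both windows, and for CDC34 most of them did. The windows span 30 bases before to 300 after the start codon and the mirror image around the stop codon, so reads outside them come from the middle of a long coding region or from untranslated sequence farther out. RCHY1 had 311 CPM outside the windows in trans2 and 74.4 CPM in starvation, while its window reads gave a log2 ratio of -0.56. CDC34 had 189 CPM outside the windows in trans2 and 12.6 CPM in starvation, and 0.45 from the windows. Its recovered length is 714 nt, so the windows leave only a short middle stretch of its coding region uncovered. In the authors' deposited table, the coding frame of CDC34 stood at 0.078 in trans2, beside a median of -0.25 for all coding frames. For RCHY1 the authors' deposited table lists no coding frame but 1 marked Trunc, at -0.45 in trans2, beside a median of -0.10 for all frames so marked, so it does not hold the rise seen in the recovered reads.

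USP7, a deubiquitinase that stabilises MDM2 and p53, had the most reads of all members. It had 3266 CPM in trans1, 5188 CPM in trans2, 2108 CPM in starvation and 586 CPM in control. Its log2 ratios were 1.84 (1.80 to 1.89) for starvation against control, 0.63 for trans1 and 1.30 for trans2 against starvation. Almost none of these reads fell near its start or stop codon. Of its reads, 99.3% in trans1, 99.7% in trans2, 98.7% in starvation and 95.2% in control lay outside the windows. Over all transcripts that share was 33% to 34.7%. Its windows alone gave -0.025 for starvation against control, -0.20 for trans1 and -0.56 for trans2, so the rise was not seen where the ends of the coding region were read. In the authors' deposited table the Trunc frame of USP7 stood at -0.049 for starvation against control, -0.36 for trans1 and -0.25 for trans2 against starvation, and thus showed no rise either. Total small RNA held a sense peak of 18 reads in the USP7 coding region, 1615 nt after the start codon, and capped small RNA one of 4 reads in the 5′ UTR, 621 nt before it. Both lie outside the windows, and whether footprint reads came from either place was not tested.

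**Figure D3:**
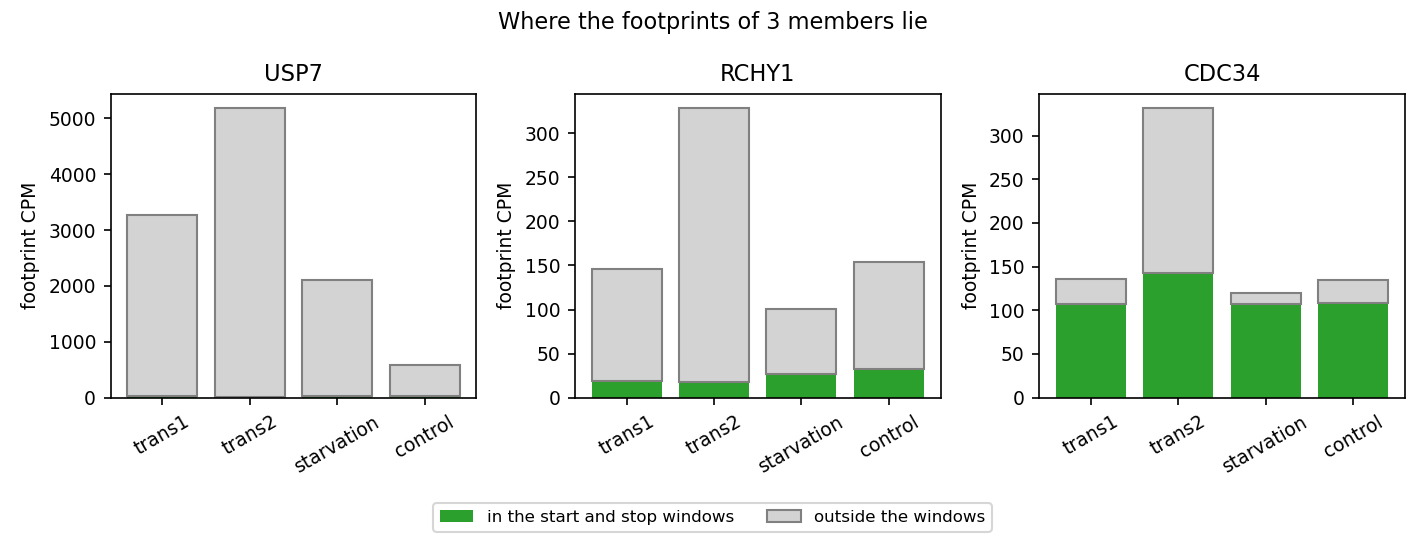
Footprint CPM (vertical axis) of USP7, RCHY1 and CDC34 in the trans1, trans2, starvation and control libraries, split into reads in the start and stop windows (green) and reads outside them (grey). The grey part carries the high trans2 bars of USP7 and RCHY1 and most of that of CDC34, while CDC34 in the other 3 libraries is mostly green.

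Footprints just before the start codon can come from ribosomes that initiate upstream. Among members, 7.41% of start-window reads in trans1 lay before the start codon (6.92 to 7.94), 6.26% in trans2 (5.88 to 6.65), 7.22% in starvation (6.84 to 7.62) and 6.44% in control (6.15 to 6.75). All transcripts had 6.17%, 6.51%, 5.98% and 7.22% in the same libraries. The member shares without each transcript's highest position were 6.53%, 6.37%, 6.48% and 6.25%, so single positions carried most of the difference between libraries. Individual genes differed far more. UBE2Z, an E2 for ubiquitin and FAT10, had 59.1% of its 127 start-window reads before the start codon in trans1, 49.7% of 145 in trans2, 69.9% of 136 in starvation and 53.6% of 194 in control. In RNF216, a ligase of Toll-like receptor signalling, the shares were 30.8%, 58.9%, 39.7% and 48.6% in that order of libraries. Both stood far above the member shares in all 4 libraries, with no common direction in starvation.

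Small RNA peaks were examined next, to ask where on these mRNAs capped and total small RNAs begin. A peak is 1 position on a transcript with at least 4 reads. The lists give no library totals, so reads cannot be compared between libraries as levels. On the sense strand 75 members had a capped peak (57.3%, against 53.2% of all genes with a peak) and 42 a total peak (32.1%, against 35.7%). Of these, 21 had both, which is 28% of the capped and 50% of the total list. Over all genes those 2 shares were 31.3% and 46.7%. On the antisense strand 28 members had a capped peak (21.4%, against 23.2% of all genes) and 43 a total peak (32.8%, against 29.6%). Of these, 20 had both, 71.4% of the capped and 46.5% of the total list, against 58.0% and 45.4% over all genes. RNF165 was the only member on all 4 lists.

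Capped sense peaks lay mostly in 5′ UTRs. Of 102 such positions on members, 70 were in the 5′ UTR (68.6%, interval 58.7 to 77.5), against 9 of 53 in total small RNA (17.0%, interval 8.07 to 29.8). All genes showed the same contrast, with 61.7% of capped and 12.8% of total positions. Coding regions held 18 of 102 capped and 34 of 53 total positions, and 3′ UTRs held 14 and 10. A capped sense peak in the 5′ UTR was present in 55 members, and 4 of these 55 also had a total sense peak in the 5′ UTR (7.27%, interval 2.02 to 17.6). Over all genes it was 111 of 1975 (5.62%), which lies within that interval.

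Of the 19 proteasome genes, 13 had a capped sense peak and 4 a total one. Their capped sense list had 19 positions, 13 of them in the 5′ UTR, and their 4 total sense positions held none there. The peaks on the core particle were PSMB5 at 4 nt before the start codon (37 reads), PSMB3 at 80 nt (25 reads), PSMA5 at 87 nt (14 reads), PSMB6 at 7 nt (10 reads) and PSMB7 at 3 nt (5 reads). PSMB5, PSMB6 and PSMB7 encode the catalytic subunits, and in each the capped peak lay within 7 nt of the start codon. On the regulatory particle, PSMD7 had peaks at 98 and 80 nt before the start codon (4 and 15 reads), PSMC3 at 19 nt (6 reads) and PSMD2 at 24 and 13 nt (4 reads each).

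Of the 31 proteasome positions in the 4 lists, 18 lay elsewhere than in the capped sense 5′ UTR group, 10 of them with under 10 reads. PSMC2 had 3 capped sense positions in its 3′ UTR, at 3445, 3446 and 3451 nt, with 16, 10 and 4 reads. PSMD8 had a capped peak inside its coding region at 186 nt (23 reads). PSME4 had a sense peak at 342 nt in both libraries, with 30 capped and 23 total reads. PSMC4 had a total sense peak at 519 nt (38 reads) and an antisense peak in its 3′ UTR at 1325 nt with 7 capped and 31 total reads. PSMG3 had a total antisense peak 500 nt before its start codon with 56 reads, the largest antisense peak of the group.

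Of the E2 genes, CDC34 had the largest capped sense peak, 57 reads at 172 nt before the start codon, with no total sense peak. UBE2S had capped peaks at 199 and 194 nt before the start codon (12 and 6 reads), and a total peak within its coding region at 185 nt (19 reads). UBE2T (146 nt, 9 reads), UBE2C (50 nt, 5 reads), UBE2Z (23 nt, 6 reads) and UBE2O (9 nt, 7 reads) each had 1 capped peak before the start codon. UBE2J2, an E2 of the endoplasmic reticulum, had an antisense peak 59 nt before its start codon with 103 capped and 115 total reads. F-box genes carried 16 capped 5′ UTR positions, of which 4 neighbouring ones, at 122 to 119 nt before the start codon, belonged to FBXO38.

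**Figure D4:**
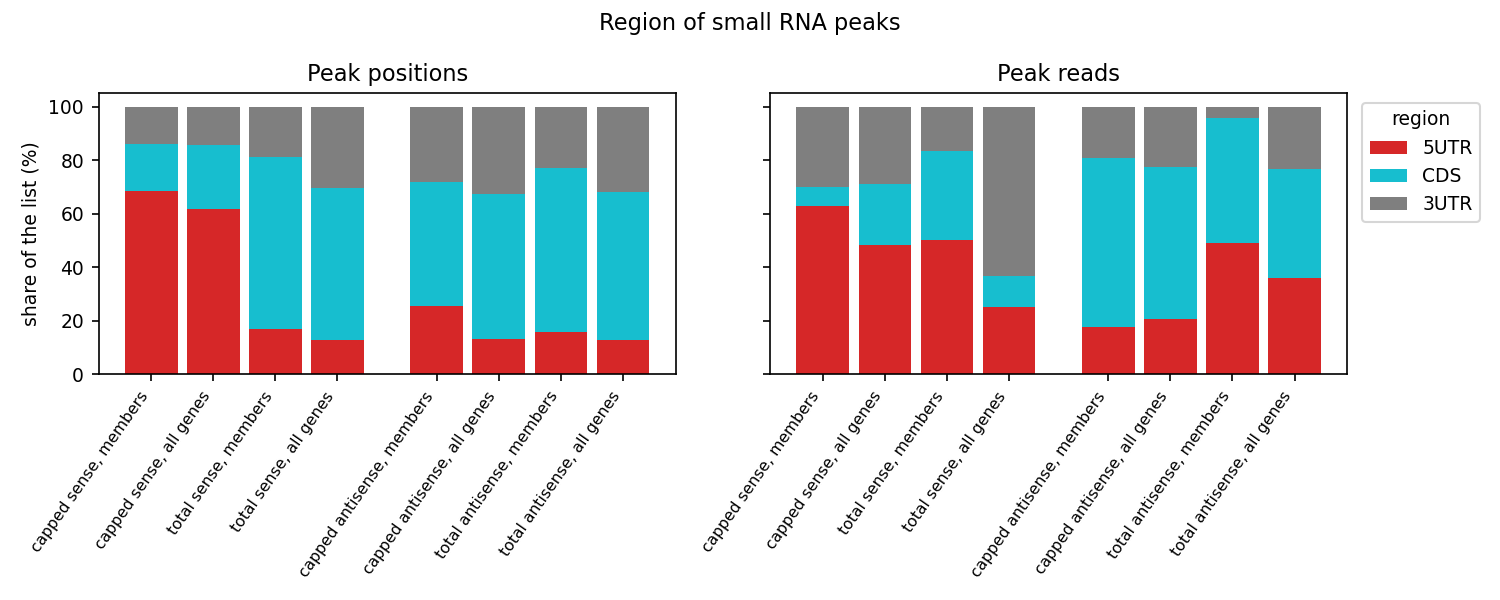
Share of small RNA peak positions (left) and peak reads (right) in the 5′ UTR, coding region (CDS) and 3′ UTR, in percent of each list, for members beside all genes in the capped and total libraries, sense and antisense. Positions put 68.6% of capped and 17.0% of total sense member peaks in the 5′ UTR, while the reads panel is set by a few genes.

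Counted in reads rather than positions, a few genes set the member shares. The 5′ UTR held 62.9% of capped and 50.3% of total sense reads. USP32, a deubiquitinase, alone held 51.4% of the capped and 42.6% of the total sense reads. Its peak at 83 nt before the start codon had 2811 capped and 429 total reads. TRIM67, a brain-expressed TRIM protein, held another 27.9% of the capped reads in its 3′ UTR, with 1527 capped and 115 total reads at 5922 nt. FBXL16, an F-box protein, followed in both lists, with a coding-region peak 49 nt after the start codon of 170 capped and 102 total reads. Without USP32 the 5′ UTR share was 23.7% in capped and 14.1% in total sense reads.

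The antisense lists were as uneven. USP27X, a deubiquitinase encoded on the X chromosome, had an antisense peak within its coding region at 1135 nt, with 889 capped and 1218 total reads. RNF139, a ligase of the endoplasmic reticulum, had one at 197 nt before its start codon with 71 capped and 1816 total reads. These 2 genes held 72.3% of all total antisense member reads. TRIM66 had 264 reads at 3111 nt in the total library and USP48 had 207 reads at 3727 nt in the capped library, each without a peak at that place in the other library.

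Positions found in both libraries were more frequent antisense than sense. Of the sense positions of members, 15 were shared, 14.7% of the capped and 28.3% of the total ones. Of the antisense positions 24 were shared, 61.5% of the capped and 42.1% of the total ones. Over all genes the shares were 23.2% and 30.6% on the sense strand and 51.8% and 38.7% on the antisense strand. The ratio of capped to total reads at a shared position depends on both unknown depths, but these are the same for every position, so the ratios can be ranked among themselves. They ran from 0.833 to 13.3 on the sense strand, with a median of 1.82, and from 0.0391 to 5.33 on the antisense strand, with a median of 0.948. TRIM67 had the highest and RNF139 the lowest.

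**Figure D5:**
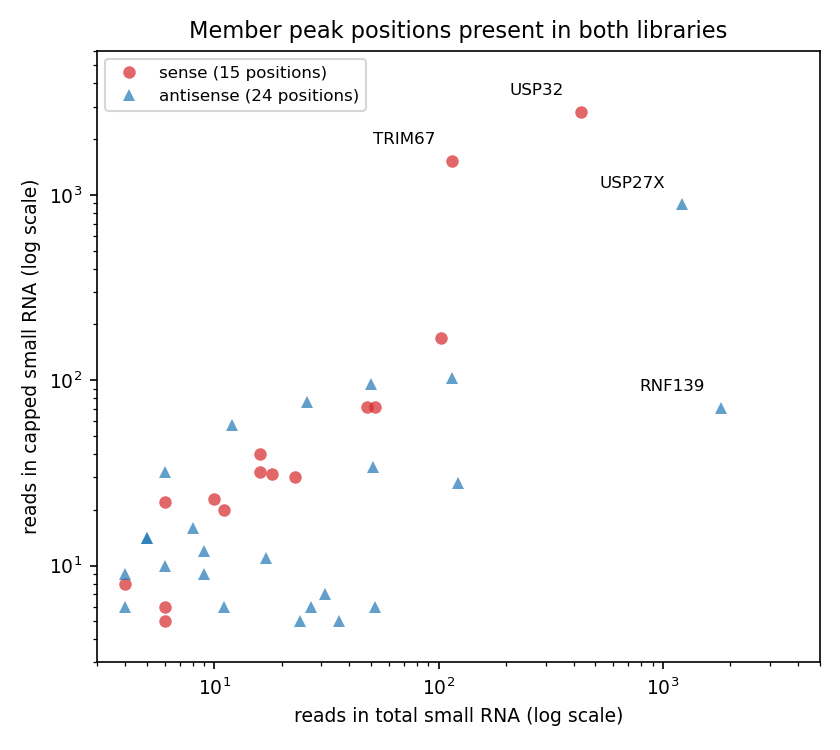
Reads at each member peak position present in both libraries, capped (vertical, log scale) against total (horizontal, log scale), for 15 sense and 24 antisense positions. TRIM67 has the highest ratio of capped to total reads (13.3) and RNF139 the lowest (0.0391), and the scale between the axes is set by the unknown depths.

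Peaks close to the start codon were mostly capped and sense. Of capped sense positions on members, 22 of 102 lay within 50 nt of the start codon (21.6%, interval 14.0 to 30.8), against 4 of 53 in total small RNA (7.55%, interval 2.09 to 18.2). Over all genes the shares were 17.2% and 4.80%. No antisense position did so among 39 capped (upper bound 9.03%) and 57 total ones (upper bound 6.27%), and all genes had 4.14% and 3.38% there. These upper bounds lie above the shares of all genes, so the lack of antisense peaks near the start codon was within counting error.

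A capped RNA at a short distance before the start codon can begin at the first base of the mRNA itself. To see this, the 14 capped sense peaks of members lying 1 to 40 nt before the start codon in genes with a RefSeq window were set beside the annotated 5′ end. In FBXO28 and TRIM65 an ATG began exactly as many bases after the annotated end as the peak lay before the start codon. In RNF114, UBE2O and PSMD2 it began 2 bases later, so the peak lay 2 bases inside the annotated end; this second distance was chosen after the values were seen. Over all genes, the distance was exact for 101 of 453 such peaks (22.3%), and a start 2 bases inside was met by 20 (4.42%). Starts 1, 3, 4, 5 and 6 bases inside were met by 10, 28, 12, 10 and 6 peaks, so 2 bases was not the most frequent of these, and shifts of 1 to 6 bases the other way were met by 1 to 3 peaks each. The first bases of the 5 members are shown from the annotated 5′ end to the ATG, which is in capitals (RefSeq, GRCh38.p14, 5′ to 3′ on the gene's strand).
FBXO28, chr1:224114111-224114132, + strand: aaggaatcaagcccccaagATG
TRIM65, chr17:75896935-75896951, - strand: gccgccgccgggccATG
RNF114, chr20:49936397-49936415, + strand: gcagagcggcagcaagATG
UBE2O, chr17:76453139-76453152, - strand: gcagagcagttATG
PSMD2, chr3:184299241-184299269, + strand: gcagcgggccggcagtggcggcggagATG
The peaks had 10 reads in FBXO28, 4 in TRIM65, 6 in RNF114, 7 in UBE2O and 4 in PSMD2, near the minimum of 4, and the remaining 9 peaks matched neither distance. In RNF114, UBE2O and PSMD2 the annotated end starts with the letters gcag, so a start 2 bases on lies at the AG of these sequences.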

How the data were processed

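The 4 small RNA peak lists and the Ribo-seq tables of HEK293 cells were used; 3 mouse liver samples were not used here. Per the submitters' processing notes the tools were STAR 2.7.10a, Bowtie 1.2.3, cutadapt 2.8 and bcl2fastq 2.20.0.422, with no role given in the sources used here. Those notes name the build GRCm39 for Ribo-seq, although the transcript IDs are human. In the density tables the authors deposited a signal for every position, relative to its transcript's mean. Each value is a whole multiple of 1 step, from which reads and length were recovered for transcripts with reads at 8 or more positions in at least 2 libraries. The recovered reads include some outside the coding region: a median of 14.4% over 1277 transcripts with short coding regions. The authors' log2 fold changes per open reading frame carry no stated scaling; their sign matched that of the recovered reads in 29 of 29 coding frames past 2-fold for starvation, 6 of 6 for trans1 and 6 of 10 for trans2. The authors' peak lists give read counts, the lowest being 4, and, per the file headers, another value: how far each position lies from the start codon.

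Reads were scaled to recovered reads (CPM), and log2((b + 1)/(a + 1)) was taken for transcripts with at least 1 CPM in either library, with 2-fold as the rule of size. Intervals are exact 95% Clopper-Pearson intervals (scipy, Python 3.11.15); they cover counting error only, since PCR copies are not separate molecules. Recovery and calls were checked on simulated data. The design had assumed normalised values per gene. Names such as USP7 end in P and a digit and were kept: 130 of 131 members matched a protein-coding RefSeq gene and 0 a pseudogene. The recovered length gave the listed region for 171 of 172 member peaks. Named are all PSM and UBE members with a finding, CDC34, RCHY1, USP7, USP20, the 10 highest and 10 lowest ratios per comparison where they add to a role, and the members with most peak reads. Members and lists were chosen with earlier results of these data known.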

Additional observations from a re-analysis of the deposited data

How the results depend on the processing

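No paired analysis was possible because each group holds 1 library, so leaving out a replicate was not possible either, and counting intervals say nothing of biological spread. Window counts see only the ends of long coding regions, small RNA library totals are unknown, and the peak lists start at 4 reads. Of 73 alternative values, 41 stayed within their limit, 31 moved out of it and 1 reversed. For counts of members past 2-fold the limit was a total within 1.5-fold of the reported one, whatever the direction or genes. For shares it was the counting interval, and for proteasome medians an interval of ranked gene values. PSMD1 passed 2-fold for starvation in all settings tried. For starvation against control, 6 members passed 2-fold as reported, 2 with a pseudocount of 5 (PSMD1 and USP7), 16 at 1.5-fold (5 higher, 11 lower), 8 in the start window alone (1 higher, 7 lower) and 17 in the stop window alone (5 higher, 12 lower), against 4 higher and 2 lower as reported. For trans1 against starvation, the 1 member as reported became 2 with a pseudocount of 0.1, 0 with 5, 8 at 1.5-fold, 10 in the start window, 15 in the stop window, 2 without the highest position and 4 in both windows together, an alternative chosen after seeing the data. Centring on the median left 1, TRIM24 in place of USP20. For trans2 against starvation the 4 as reported became 10 at 1.5-fold, 10 in the start window and 14 in the stop window; both windows together gave 4, of which FBXO46 was shared with the reported ones. The trans2 proteasome median of -0.13 turned to 0.051 in the start window, where all transcripts had a median of 0.115. Window counts rest on fewer reads by construction. Over all transcripts, 5.57% were higher and 8.71% lower past 2-fold in the start window for starvation, and 6.72% and 9.76% in the stop window. For trans1 these shares were 5.67% and 8.93%, then 6.04% and 11.8%. For trans2 they were 9.27% and 2.24%, then 9.99% and 3.26%. The 1.5-fold counts were not made over all transcripts. The cause of the other shifts was not tested. The share of start-window reads before the start codon, as a mean over transcripts, was 12.4% in trans1, 9.06% in trans2, 9.68% in starvation and 10.8% in control; without the highest position it was 6.53% in trans1 and 6.48% in starvation. Counting each position once gave 68.6% of capped and 17.0% of total sense peaks in the 5′ UTR, 46.2% of capped antisense peaks in coding regions and 15.8% of total antisense peaks in the 5′ UTR. Without the gene with most reads, the same shares of reads were 23.7%, 14.1%, 26.3% and 9.68%. At 10 or more reads the 5′ UTR share was 57.9% of total sense and 51.3% of total antisense reads, and 22.1% of members kept a capped and 11.5% a total sense peak.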
